A study of Saccharomyces cerevisiae with 8 samples.

Results

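The 10 genes described here encode the main catalases, superoxide dismutases and peroxidases of Saccharomyces cerevisiae: CTT1, CTA1, SOD1, SOD2, TSA1, TSA2, AHP1, PRX1, GPX1 and GPX2. They were taken by name from the 6600 protein-coding gene rows, and all 10 were found. RNA-seq counts came from 4 evolved strains with 2 biological replicates each, giving 8 libraries. The strains are DGY1726, which is named Trans, DGY1735 (ODIRA_A), DGY1741 (ComQuad), and DGY1743, the strain ODIRA_B. Every strain is of the FY4/S288C background and carries a GFP and KanMX reporter cassette and extra copies of GAP1, the general amino acid permease gene. Each strain is 1 clone from a population evolved under glutamine limitation, DGY1726 and DGY1735 after fewer generations than DGY1741 and DGY1743, so that the age of the population and the strain cannot be told apart. All cultures were grown aerobically in glutamine-limited chemostats and received cycloheximide briefly before harvest. The ancestor was not analysed here, so every value compares evolved clones with each other.

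Aerobic cells make superoxide, largely at the respiratory chain, and superoxide dismutases turn it into hydrogen peroxide. Catalases split hydrogen peroxide into water and oxygen without a reducing partner, whereas peroxiredoxins and glutathione peroxidases reduce it with electrons that thioredoxin or glutathione passes on from NADPH. In budding yeast many of these genes are known targets of the stress factors Msn2 and Msn4, which bind the stress response element, or of the oxidant-sensing factor Yap1. Catalase T (CTT1), the copper-zinc dismutase (SOD1) and the peroxiredoxins TSA1, TSA2 and AHP1 are cytosolic. The manganese dismutase (SOD2) and the peroxiredoxin PRX1 are mitochondrial. Catalase A (CTA1) is found in peroxisomes and also in the mitochondrial matrix, and is listed here as peroxisomal. The glutathione peroxidases GPX1 and GPX2 were assigned to no single compartment.

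The stress response element has the core AGGGG, and its matches are shown because 8 of the 10 genes hold one within 250 bases before to 50 bases after the start codon. Of 6571 promoters of the same length, 21.6% hold this core on either strand. The windows below are from the RefSeq R64 genome, read 5′ to 3′ on the coding strand of each gene, with the match in capitals. A match on the other strand reads CCCCT, the number before "bases" is the distance of the match from the start codon, and the GPX1 window stops at the edge of the promoter.
CTT1, chrVII:654490-654516, + strand, 133 bases: atttatcgtatCCCCTactgctacacg
SOD1, chrX:623196-623222, - strand, 197 bases: cccgctcccttAGGGGcacccacccca
SOD2, chrVIII:123716-123742, - strand, 141 bases: cgtagcagacaCCCCTgatgaagaagc
TSA1, chrXIII:220074-220100, + strand, 53 bases: caacgggccttCCCCTcgttcaattgc
AHP1, chrXII:368555-368581, + strand, 215 bases: ctttttccacaCCCCTtccggacggta
AHP1, chrXII:368605-368631, + strand, 165 bases: atgaaaaataaAGGGGtggaaaattaa
PRX1, chrII:101257-101283, - strand, 116 bases: gtaaagaaacaAGGGGccggatgttgc
GPX1, chrXI:390116-390133, - strand, 248 bases: ttCCCCTtctgttcccta
GPX2, chrII:707351-707377, + strand, 166 bases: ttagtgcaaagCCCCTaagccagcctg

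CTA1 and TSA2 hold no AGGGG in this window. A Yap1 site with the letters TTACTAA was matched in 1 of the 10 promoters, that of SOD1, against 7.26% of all promoters. It is shown because Yap1 is the main peroxide-responsive factor, and the match lies 149 bases before the start codon on the other strand.
SOD1, chrX:623146-623174, - strand: gtgtgtcggaaTTAGTAAgcggacatccc
The CCAAT box, bound by the respiratory regulator Hap2/3/4/5, was found on either strand in 7 of the 10 promoters and in 45.0% of all. No matches of different motifs overlapped. These are matches of letters and not measured binding sites.

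The members lie apart in the genome, as single coding exons without a same-strand gene overlapping them. CTT1 is at VII:654634-656322, CTA1 at IV:968133-969680, SOD1 at X:622550-623014, SOD2 at VIII:122889-123590, TSA1 at XIII:220138-220728, TSA2 at IV:1365072-1365662, AHP1 at XII:368781-369311, PRX1 at II:100371-101156, GPX1 at XI:389380-389883 and GPX2 at II:707528-708016, in R64 coordinates. None of the 10 lies within the limits taken for the amplified regions, XI:440608-663289 from VPS1 to GEX2 at their widest and V:417281-441819 in DGY1726. The text of the study names VPS1 as a limit, but not GEX2. TSA1 and TSA2 are the closest relatives among them: their proteins of 196 residues are 85.7% identical and their coding sequences 78.5%. The stretch around the codon of the peroxidatic cysteine, codons 41 to 55, is shown because it tells whether reads of one could be counted in the other, with the 11 differing bases of 45 in capitals.
TSA1, chrXIII:220258-220302, + strand: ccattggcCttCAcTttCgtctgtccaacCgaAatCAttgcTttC
TSA2, chrIV:1365498-1365542, - strand: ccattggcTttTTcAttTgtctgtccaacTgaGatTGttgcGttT
The longest run the 2 coding sequences share at any aligned place is 14 bases. No stretch of 50 bases, the number of sequencing cycles, from any of the 10 genes occurs elsewhere in the genome. An error-free read of a member at that full length therefore has a single place. Reads shortened by trimming were not checked.

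Protein-coding totals ranged from 9125509 to 13205947 counts per library. Mitochondrially encoded genes took 0.0534 to 0.0957% of the counts in the 6 libraries of DGY1726, DGY1735 and DGY1741, but 13.2 and 19.2% in those of DGY1743, the strain with the highest share in both replicates. Abundance is given as CPM, the counts of a gene scaled to the same library total, on TMM library sizes, with SD over n = 2. A gene was tested with edgeR's quasi-likelihood F-test where its mean was at least 100 counts, which 5527 genes and 9 members passed. CTA1, with a mean of 87.5 counts and 53 to 114 in single libraries, fell below that limit, and TSA2, with a mean of 173.9 counts, was the next lowest member. A gene is called where its Benjamini-Hochberg adjusted p is under 0.05. With 2 replicates a strain, p-values rest on a spread estimated with the help of all genes.

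Among the 4 strains, 8 of the 9 tested members were called, where 47.3% of all tested genes were. The exception was TSA2, with an adjusted p of 0.216 (edgeR). The lowest strain mean was that of DGY1741 for all 10 members, although for TSA2 it differed from that of DGY1735 by far less than the SD. Both DGY1741 libraries lay below the 6 others in 8 of the 9 tested members, against 16.4% of all tested genes, and the same held for the untested CTA1. DGY1726 had the highest mean of SOD1, SOD2, TSA1, TSA2, AHP1 and CTT1, DGY1735 of PRX1 and GPX1, and DGY1743 of CTA1 and GPX2.

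**Figure D1:**
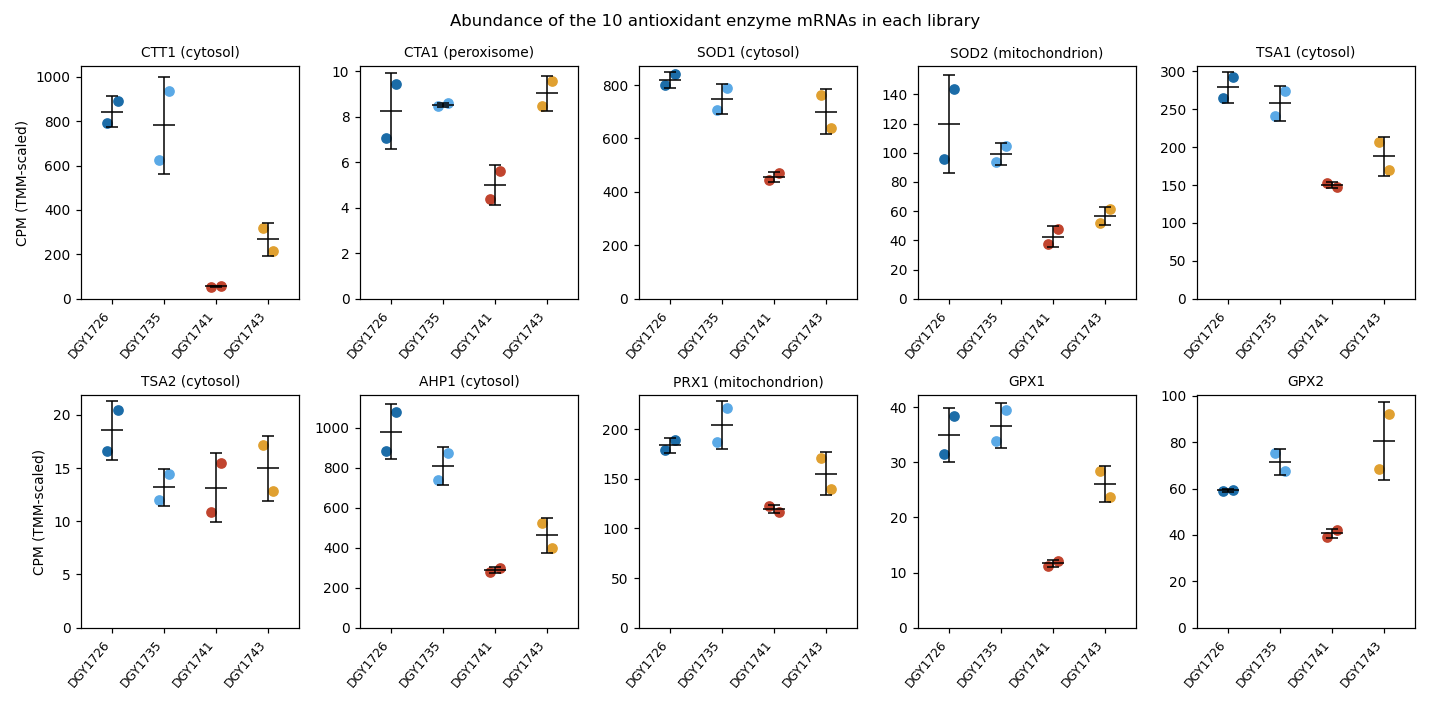
Abundance of the 10 antioxidant enzyme mRNAs, in CPM on a linear axis from 0, in the 2 libraries of each strain (points), with the mean and SD (black marks, n = 2). CTT1 spans the widest range, from 52.5 CPM in a DGY1741 library to 935 CPM in a DGY1735 library, and the 2 red DGY1741 points are the lowest in every panel except that of TSA2.

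CTT1, the cytosolic catalase that yeast induces under many stresses, varied most. It was measured at 794 and 891 CPM in DGY1726, 626 and 935 CPM in DGY1735, 52.5 and 58.5 CPM in DGY1741, and 320 and 215 CPM in DGY1743. The libraries of DGY1726 and DGY1735 overlapped, those of DGY1743 lay below both, and those of DGY1741 were far below all others. The highest strain mean was 15.2-fold the lowest (adjusted p = 3.09e-07, edgeR). Against DGY1726 the level in DGY1741 was 15.1-fold lower (log2 ratio -3.92, SE 0.13, edgeR adjusted p = 1.53e-14) and that in DGY1743 3.16-fold lower (log2 ratio -1.66, SE 0.17, edgeR adjusted p = 1.85e-07). Against DGY1735 it was 13.9-fold lower in DGY1741 (edgeR adjusted p = 6.82e-09) and 2.93-fold lower in DGY1743 (edgeR adjusted p = 0.0059). The last call was lost without DGY1743 replicate 2, at an adjusted p of 0.0785. Per kilobase CTT1 was below AHP1 and SOD1 alone in DGY1726, at 498.7 ± 40.6 CPM per kb and within the spread of TSA1 (472 ± 34.1). In DGY1741, at 32.9 ± 2.50 CPM per kb, only GPX1 (23.2 ± 1.31), TSA2 (22.3 ± 5.43) and CTA1 were lower.

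CTA1, the peroxisomal catalase that serves fatty acid oxidation, was the least abundant member at 4.97 CPM per kb over all libraries. It was measured at 7.06 and 9.42 CPM in DGY1726, 8.45 and 8.57 CPM in DGY1735, 4.37 and 5.60 CPM in DGY1741, and 8.48 and 9.57 CPM in DGY1743. The DGY1741 libraries were the lowest and the 6 others overlapped. In an edgeR fit without the limit on low counts its adjusted p was 0.0456 among the strains, and with edgeR's own filter, filterByExpr, 0.0510, so that the call depends on which low genes enter.

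SOD1, the cytosolic dismutase that carries most superoxide dismutase activity in yeast, was the most abundant member per length, at 1465 CPM per kb over the 8 libraries. Its libraries held 799 and 841 CPM in DGY1726, 708 and 788 CPM in DGY1735, 443 and 469 CPM in DGY1741, and 761 and 640 CPM in DGY1743. Those of DGY1741 lay well below the 6 others, and those of DGY1735 and DGY1743 overlapped each other just below those of DGY1726. The level in DGY1741 was 1.79-fold lower than in DGY1726 (log2 ratio -0.84, SE 0.11, edgeR adjusted p = 6.62e-06) and 1.63-fold lower than in DGY1735 (edgeR adjusted p = 0.000813), the latter at an adjusted p of 0.0526 without DGY1741 replicate 1. DGY1743 was 1.54-fold above DGY1741 (edgeR adjusted p = 0.000258, and 0.004 in the fit of all 8 libraries). The ratios of DGY1743 to DGY1726 and DGY1735 were not called (edgeR adjusted p = 0.258 and 0.681).

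SOD2, the manganese enzyme of the mitochondrial matrix, was low in both DGY1741 and DGY1743. It was measured at 95.8 and 143 CPM in DGY1726, 93.7 and 104 CPM in DGY1735, 37.4 and 47.7 CPM in DGY1741, and 52.1 and 61.3 CPM in DGY1743. The libraries of the former 2 strains overlapped each other and lay above those of the latter 2, which did not overlap. Compared with DGY1726, SOD2 was 2.80-fold lower in DGY1741 (log2 ratio -1.49, SE 0.16, edgeR adjusted p = 4.54e-07) and 2.12-fold lower in DGY1743 (log2 ratio -1.08, SE 0.17, edgeR adjusted p = 6.37e-05). DGY1743 was also 1.76-fold below DGY1735 (edgeR adjusted p = 0.00716). This strain had the highest share of mitochondrially encoded counts, whose part in the result was not tested. With mitochondrially encoded genes left out of the fits, no member gained or lost a call. The 1.34-fold excess of DGY1743 over DGY1741 passed narrowly (edgeR adjusted p = 0.0470) and was lost with DESeq2 (adjusted p = 0.104) and in the fit of all 8 libraries (edgeR adjusted p = 0.142).

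TSA1 and AHP1, the 2 abundant cytosolic peroxiredoxins, followed the same order of strains. TSA1, which is also a chaperone and peroxide signal relay, held 265 and 293 CPM in DGY1726, 242 and 274 CPM in DGY1735, 153 and 147 CPM in DGY1741, and 206 and 170 CPM in DGY1743. Its DGY1741 libraries were lowest and its DGY1743 libraries lay between them and the other 2 strains. AHP1, which prefers organic hydroperoxides, held 882 and 1079 CPM in DGY1726, 740 and 874 CPM in DGY1735, 278 and 300.0 CPM in DGY1741, and 522 and 399.9 CPM in DGY1743. No DGY1741 or DGY1743 library reached those of the other 2 strains. Against DGY1726, TSA1 was 1.86-fold lower in DGY1741 (log2 ratio -0.89, SE 0.12, edgeR adjusted p = 4.09e-06) and 1.49-fold lower in DGY1743 (edgeR adjusted p = 0.0026), and AHP1 was 3.39-fold lower (log2 ratio -1.76, SE 0.13, edgeR adjusted p = 1.04e-09) and 2.14-fold lower (edgeR adjusted p = 2.92e-05). AHP1 was 1.76-fold lower in DGY1743 than in DGY1735 (edgeR adjusted p = 0.0187), a call lost without DGY1743 replicate 2 (adjusted p = 0.126). TSA1 missed the threshold there (edgeR adjusted p = 0.0561) and passed it with DESeq2 (adjusted p = 0.0320).

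TSA2, the close relative of TSA1 that is known as its scarce, stress-inducible copy, was called in no pair of strains in the reported fits. With a block for the replicate number it was called in DGY1741 over DGY1726 (log2 ratio -0.50, edgeR adjusted p = 0.0051). It was measured at 16.6 and 20.5 CPM in DGY1726, 12.0 and 14.4 CPM in DGY1735, 10.9 and 15.4 CPM in DGY1741, and 17.1 and 12.8 CPM in DGY1743. The libraries of DGY1726 lay above those of DGY1735 and DGY1741, and those of any other 2 strains overlapped. Its largest ratio, DGY1741 against DGY1726, was -0.48 on the log2 scale with a 95% interval from -0.92 to -0.05 (edgeR adjusted p = 0.0693), so that a decrease of the size seen in TSA1 lay within the interval. It ran from -0.26 to -0.76 as single libraries were left out, and was called without DGY1741 replicate 2 (log2 ratio -0.76, edgeR adjusted p = 0.0218).

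PRX1, the mitochondrial peroxiredoxin, held 178 and 189 CPM in DGY1726, 187 and 221 CPM in DGY1735, 123 and 117 CPM in DGY1741, and 171 and 140 CPM in DGY1743. The DGY1741 libraries were again lowest, and those of DGY1743 lay between them and the rest. It was 1.53-fold lower in DGY1741 than in DGY1726 (log2 ratio -0.62, SE 0.11, edgeR adjusted p = 0.000192) and 1.69-fold lower than in DGY1735 (log2 ratio -0.76, SE 0.12, edgeR adjusted p = 0.000228). The 1.30-fold excess of DGY1743 over DGY1741 (edgeR adjusted p = 0.0252) was lost with DESeq2 (adjusted p = 0.0643) and in the fit of all 8 libraries (edgeR adjusted p = 0.0509).

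The 2 glutathione peroxidases shared their minimum in DGY1741, and their DGY1743 libraries were placed differently beside those of DGY1726. GPX1 held 31.5 and 38.4 CPM in DGY1726, 33.8 and 39.5 CPM in DGY1735, 11.2 and 12.2 CPM in DGY1741, and 28.4 and 23.7 CPM in DGY1743. GPX2 held 58.8 and 59.6 CPM in DGY1726, 75.4 and 67.7 CPM in DGY1735, 39.3 and 42.1 CPM in DGY1741, and 68.5 and 92.4 CPM in DGY1743. For GPX1 the DGY1743 libraries lay below those of DGY1726 and DGY1735, but neither ratio was called (edgeR adjusted p = 0.0957 and 0.0767). For GPX2 they lay above those of DGY1726 and overlapped those of DGY1735. In DGY1741, GPX1 was 2.98-fold lower than in DGY1726 (log2 ratio -1.58, SE 0.18, edgeR adjusted p = 8.08e-07) and GPX2 1.45-fold lower (log2 ratio -0.54, SE 0.13, edgeR adjusted p = 0.00279). From DGY1741 to DGY1743 they were 2.24-fold (edgeR adjusted p = 5.29e-06) and 1.98-fold higher (edgeR adjusted p = 6.98e-09). In the fit of all 8 libraries the edgeR adjusted p were 0.000511 for GPX1 and 0.000438 for GPX2. GPX2 was the only member called higher in DGY1743 than in DGY1726, by 1.35-fold (edgeR adjusted p = 0.0481). This was lost with DESeq2 (adjusted p = 0.0663) and in edgeR with upper-quartile factors, filterByExpr or no filter (adjusted p = 0.0652, 0.0632 and 0.0694). The log2 ratio, 0.43 in the reported fit, was 0.21 without DGY1743 replicate 2.

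Between genes, levels were compared per kilobase. SOD1 and AHP1 led, at 1763 ± 63.1 and 1846 ± 262 CPM per kb in DGY1726, which did not differ beyond their spread, and at 981 ± 39.2 and 544 ± 29.7 CPM per kb in DGY1741, which did. Over all libraries TSA1 followed at 370.0, CTT1 at 288, PRX1 at 211, GPX2 at 129, SOD2 at 113, GPX1 at 54.2, TSA2 at 25.3 and CTA1 at 4.97 CPM per kb. GPX2 and SOD2 were within 1 SD of each other in DGY1735, at 146 ± 11.1 and 141 ± 10.9 CPM per kb. In DGY1743 GPX2 exceeded SOD2, at 165 ± 34.6 against 80.8 ± 9.22 CPM per kb.

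In the pair DGY1735 and DGY1726, no member was called in either direction, where 0.651% of all genes were called higher in DGY1735 and 1.1% lower. At an unadjusted p under 0.05, edgeR gave 1 member higher, GPX2, and 1 lower, TSA2, and DESeq2 called 0 after adjustment. The median log2 ratio of the 9 members was -0.11 and that of all tested genes 0.01. The 95% interval of CTT1 ran from -0.54 to 0.34 and that of SOD1 from -0.40 to 0.15, so that differences of these sizes remain possible. With 2 replicates a strain the intervals are not limits of detection. TSA2, with an interval from -0.91 to -0.03, was also not called (edgeR adjusted p = 0.311).

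DGY1741 was lower than DGY1726 in 8 of the 9 tested members and higher in 0, where 22% of all genes were called lower and 21.2% higher. Against DGY1735 it was likewise lower in 8 of 9 and higher in 0, beside 18.2% lower and 20.3% higher of all genes. For higher levels both edgeR and DESeq2 gave 0 members in these 2 pairs, also at an unadjusted p under 0.05 (edgeR). The median log2 ratio of the members was -0.89 against DGY1726 and -0.80 against DGY1735, with -0.01 and 0.01 for all tested genes. These pairs share the DGY1741 libraries.

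DGY1743 was lower than DGY1726 in 4 members, CTT1, SOD2, TSA1 and AHP1, and higher in GPX2, where 13.8% of all genes were called lower and 13.4% higher. Against DGY1735 it was lower in 3 members, CTT1, SOD2 and AHP1, and higher in 0, beside 6.4% lower and 9.72% higher of all genes. The latter 3 became 5 without DGY1735 replicate 1 and 1 without DGY1743 replicate 2, SOD2. In the same pair edgeR gave 0 members higher in DGY1743 at an unadjusted p under 0.05, and DESeq2 gave 0. Against DGY1741, 7 of the 9 were called higher, all but TSA1 and TSA2, and 0 lower, where 14.3% of all genes were called higher and 10.3% lower. At an unadjusted p under 0.05 edgeR gave 8 higher and 0 lower, and DESeq2 called 5 higher and 0 lower. In this pair edgeR pooled the spread over all genes, so that p-values came out very small: that of CTT1, 4.84-fold higher, was 1.17e-54 after adjustment and 9.04e-06 in the fit of all 8 libraries.

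**Figure D2:**
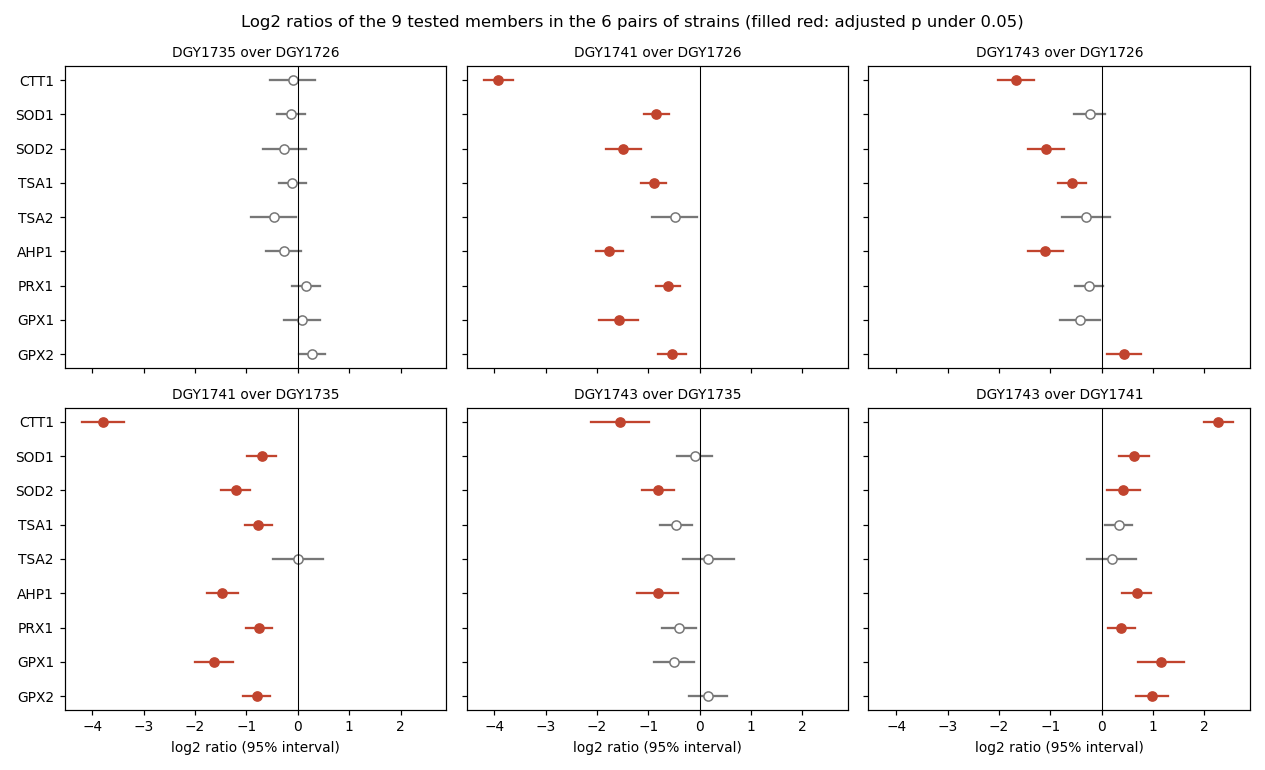
Log2 ratios of the 9 tested members in the 6 pairs of strains, with 95% intervals as horizontal lines. Filled red points have an adjusted p under 0.05 (edgeR), open grey points do not. All points are open in the pair DGY1735 over DGY1726, and 8 of 9 are filled and left of 0 in each pair that sets DGY1741 over DGY1726 or DGY1735.

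The balance between partner enzymes was compared as the ratio of their counts within a library, which does not depend on how libraries are scaled. An exact permutation test asked whether a ratio differed among the strains, with p adjusted over the 5 ratios. The smallest p that the 8 libraries allow is 0.00952. Where 1 strain differs from 3 alike ones, p can be as high as 0.143, the share of all pairings of the libraries that keep that strain together.

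The mitochondrial to cytosolic dismutase ratio, SOD2 to SOD1, was 0.120 and 0.171 in DGY1726, 0.132 and 0.133 in DGY1735, 0.0843 and 0.102 in DGY1741, and 0.0685 and 0.0957 in DGY1743. All 4 libraries of DGY1741 and DGY1743 lay below the 4 others. The strain means spanned a 1.77-fold range, and the difference among the 4 strains did not pass (exact permutation p = 0.114, adjusted p = 0.114). The mitochondrial to cytosolic peroxiredoxin ratio, PRX1 to TSA1, was 0.674 and 0.645 in DGY1726 and between 0.772 and 0.826 in the 6 other libraries. This 1.25-fold range had an exact permutation p of 0.0476 and an adjusted p of 0.0952. Without DGY1735 replicate 2 the PRX1 to TSA1 ratio passed (exact permutation, adjusted p = 0.0238). With so few libraries the test can hardly reach an adjusted p under 0.05 where 1 strain stands apart from 3 or 2 strains from 2, so that a p above it says little about whether a mitochondrial enzyme changed apart from its cytosolic partner. Of the 5 cytosolic and 2 mitochondrial members tested, 4 and 2 were called lower in DGY1741 than in DGY1726, beside 22% of all tested genes. Their median log2 ratios were -0.89 and -1.05.

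The peroxisomal to cytosolic catalase ratio, CTA1 to CTT1, had the widest range of the 5. It was 0.0089 and 0.0106 in DGY1726, 0.0135 and 0.0092 in DGY1735, 0.0832 and 0.0958 in DGY1741, and 0.0265 and 0.0446 in DGY1743. The libraries of DGY1741 were highest, those of DGY1743 came next, and those of DGY1726 and DGY1735 overlapped. The strain means spanned a 9.2-fold range (exact permutation p = 0.019, adjusted p = 0.0952). The rarer to the commoner thioredoxin peroxidase, TSA2 to TSA1, ranged from 0.0495 in a DGY1735 library to 0.105 in a DGY1741 library (exact permutation p = 0.0571, adjusted p = 0.0952). GPX2 to GPX1 had strain means between 1.70 in DGY1726 and 3.48 in DGY1741, with DGY1743 libraries at 2.41 and 3.90 (exact permutation p = 0.0952, adjusted p = 0.114). None of the 5 ratios passed after adjustment.

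**Figure D3:**
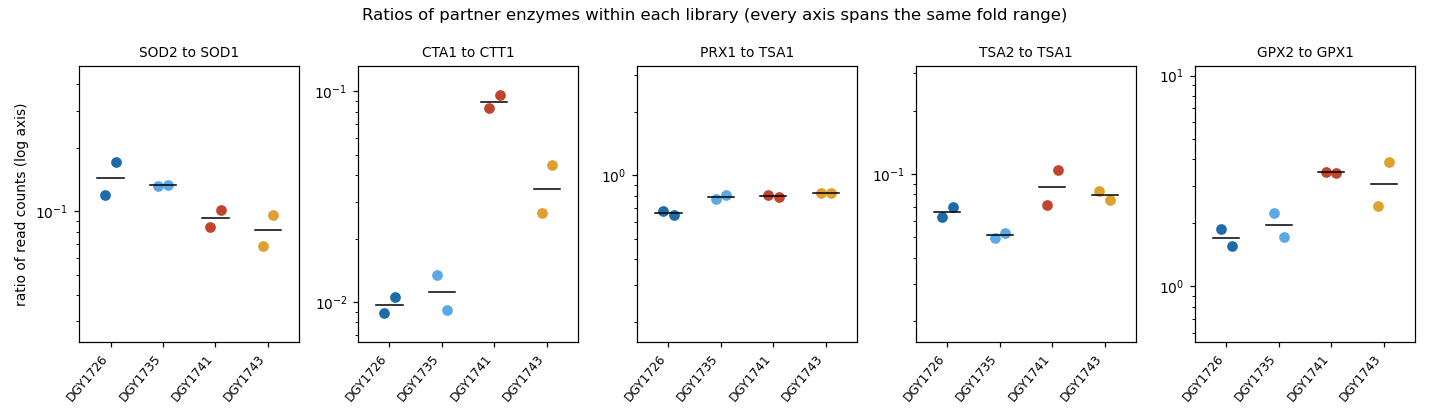
Count ratios of 5 pairs of partner enzymes in each library (points) and their strain means (lines, geometric mean of n = 2), on log axes that span the same fold range. CTA1 to CTT1 runs from 0.0089 to 0.0958, whereas PRX1 to TSA1 stays between 0.645 and 0.826.

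Over the 8 libraries, which share their scaling, the log2 CPM of TSA1 and AHP1 were the most alike of any pair of members (Pearson r = 0.994), and CTT1 was most like GPX1 (r = 0.984). TSA2 and GPX2 were the least alike (r = 0.04), and TSA2 had no partner above r = 0.60, that with SOD1. Among all other tested genes, CTT1 was most like DDR2, a stress-induced gene (r = 0.997), HSP12, a small membrane-protecting heat shock protein (r = 0.995), and HBT1 (r = 0.995). DDR2 fell from 187 ± 19.7 CPM in DGY1726 to 18.4 ± 3.68 CPM in DGY1741, and HSP12 from 2628 ± 87.6 to 503 ± 48.0 CPM. TSA1 was most like HSP60, the mitochondrial chaperonin (r = 0.998), AMS1, a vacuolar mannosidase (r = 0.994), and YIR014W (r = 0.992). SOD1 was most like PIM1, a mitochondrial protease (r = 0.991), YER053C-A (r = 0.989) and YCL048W-A (r = 0.988), and SOD2 most like DAS1 (r = 0.996), URA6, a nucleotide kinase (r = 0.989), and POM33, a nuclear pore protein (r = 0.988). These correlations rest on 4 strains and are given as a description.

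Genes of the general stress response were measured beside the members. The 9 on the list were HSP12, HSP26, HSP42, HSP104, DDR2, TPS1, TPS2, PNC1 and SSA4, which encode chaperones, trehalose synthesis enzymes and other stress-induced proteins. All 9 were called among the strains, where 47.3% of all tested genes were. Against DGY1726, 9 were called lower in DGY1741 (22% of all genes) with a median of -2.28 on the log2 scale, and 8 lower in DGY1743 (13.8% of all genes) with a median of -0.93. Against DGY1735, 9 were called lower in DGY1741 (18.2% of all genes) and 4 in DGY1743 (6.4% of all genes). HSP26, a small heat shock chaperone, was highest in DGY1726 at 843 ± 157 CPM and lowest in DGY1741 at 38.5 ± 5.01 CPM. Their part in the values of the antioxidant genes was not tested.

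The genes that feed or support the members were counted in the same fits. Of 31 genes on the wider antioxidant list, 30 were tested, SRX1, which encodes the sulfiredoxin that repairs peroxiredoxins, being too low. Among the strains, where 47.3% of all tested genes were called, 20 of the 30 were. This count fell without DGY1741 replicate 1, as did the count over all tested genes. Called were 3 of 3 other peroxidases, 3 of 5 genes of the thioredoxin system and 5 of 8 of the glutathione system. So were 2 of 3 for copper and manganese delivery, 2 of 5 regulators, 2 of 3 for NADPH supply and 3 of 3 for other detoxification. Of the delivery genes MTM1 and ATX1 were called, and CCS1 was not (edgeR adjusted p = 0.216). In DGY1741 against DGY1726, 16 of the 30 were called lower and 6 higher, beside 22% lower and 21.2% higher of all genes, with a median of -0.37 on the log2 scale. In DGY1743 against DGY1726, 4 were lower and 5 higher, which is near the 13.8% lower and 13.4% higher of all genes. In DGY1735 against DGY1726 edgeR called 0, beside 0.651% higher and 1.1% lower of all genes. DESeq2 called 1, beside 191 of all 5527 tested genes. At an unadjusted p under 0.05 edgeR gave 8, for which no share over all genes was computed.

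Of the called genes on this list, 6 had the widest range between strains. YHB1, the flavohemoglobin that removes nitric oxide, had its highest level in DGY1743, at 86.4 ± 1.74 CPM, and its lowest in DGY1735, at 28.9 ± 5.81 CPM, and in DGY1741 it was above DGY1726 (log2 ratio 0.46, SE 0.15, edgeR adjusted p = 0.0154). MXR1, a methionine sulfoxide reductase, was also highest in DGY1743, at 157 ± 4.69 CPM, and lowest in DGY1741, at 61.0 ± 2.31 CPM. Against DGY1726, YHB1 was higher in DGY1743 by 1.20 on the log2 scale (SE 0.16, edgeR adjusted p = 6.06e-06) and MXR1 by 0.75 (SE 0.14, edgeR adjusted p = 0.000351). CCP1, the mitochondrial cytochrome c peroxidase, had 178 ± 3.35 CPM in DGY1741 and 530.0 ± 33.2 CPM in DGY1743. It is the gene of this list that lies within the limits of the amplified regions on chromosome XI, and its copy number was not measured here. By the limits the study names, it lies inside the amplified segments of DGY1735 and DGY1743 and outside that of DGY1741. Strain and copy number therefore cannot be told apart between DGY1741 and DGY1743. For DGY1726 the study names a duplication from TOF2 to GAP1 within a translocation, from which the copy number of CCP1 was not derived here. TRX3, the mitochondrial thioredoxin, and GTT1, a glutathione transferase, were highest in DGY1735, at 137 ± 2.77 and 166 ± 25.2 CPM, and lowest in DGY1741, at 60.7 ± 3.79 and 66.6 ± 6.65 CPM. GRX1, a cytosolic glutaredoxin, ranged from 29.0 ± 3.45 CPM in DGY1741 to 64.2 ± 17.3 CPM in DGY1743.

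**Figure D4:**
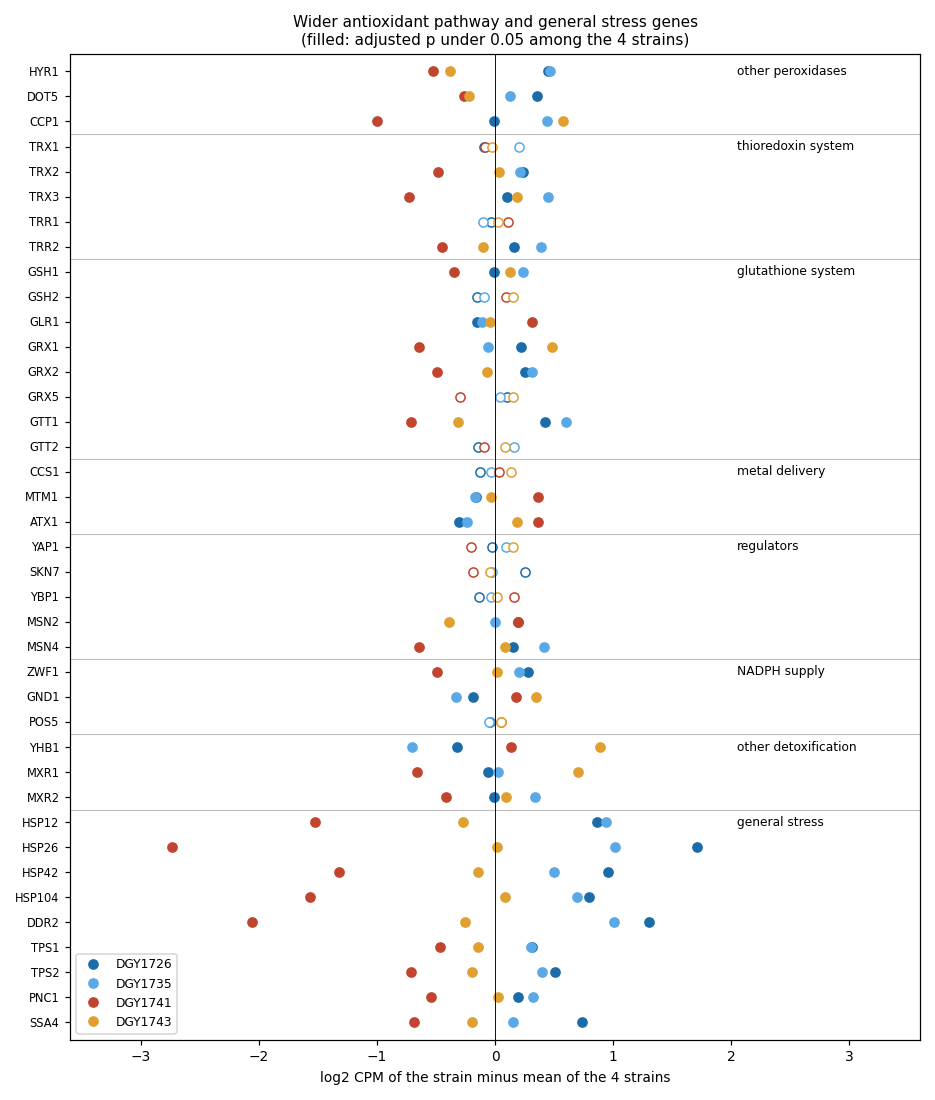
Strain means of log2 CPM (n = 2) of the 30 tested genes of the wider antioxidant list and the 9 general stress genes, each minus the mean of the 4 strains. Filled points mark genes with an adjusted p under 0.05 among the strains (edgeR). DGY1741 (red) is lowest for the general stress genes, and DGY1743 (orange) is highest for CCP1, GRX1, YHB1 and MXR1.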

How the data were processed

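Yeast RNA from 8 libraries was sequenced as single-end reads. Per the labels, the authors used cutadapt, STAR and bedtools with the R64 genome. The deposited values are whole-number counts per feature of the R64-1-1 annotation, counted by strand and without normalization. The labels describe polyadenylated RNA, whereas the methods state no poly-A selection. Groups and replicate numbers came from the sample titles.

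Protein-coding gene rows other than transposable elements were scaled with TMM and tested with edgeR 4.0.16 in R 4.3.3 (quasi-likelihood F-test, Benjamini-Hochberg over the 5527 genes averaging 100 counts or more). Differences among strains used all 8 libraries, and each pair of strains its 4. The SE is the log2 ratio divided by the square root of F. Replicates differed by more than counting noise (chi-square per degree of freedom 16.1 to 55.8). The scripts were tested on simulated data. Alternatives were DESeq2 1.42.0, other factors and filters, nuclear genes alone, a fit of 8, a replicate block, each library left out and a threshold of 0.01. Members, lists and tests were chosen with earlier results of these data known. All members are named. Of the wider list, the 6 called genes with the widest range of strain means of log2 CPM and any in an amplified segment are named, and for CTT1, SOD1, SOD2 and TSA1 the 3 tested genes with the highest Pearson r. Promoter windows were cut from the RefSeq R64 genome, in which 17 of 17 chromosome lengths and 10 of 10 member coordinates were those of the files.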

Additional observations from a re-analysis of the deposited data

How the results depend on the processing

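All 8 members called among the 4 strains, and all 8 called in DGY1741 against DGY1726, passed under each alternative run. Of 783 values of single members under an alternative, 730 kept direction and side of the threshold, 25 lost their call, 11 gained one and 17 changed sign, the last all for ratios that were not called. Against DGY1735, DGY1743 differed in 5 members in the fit of all 8 libraries and in 1 to 5 when a library was left out. The count of the wider list ranged from 13 to 22 when a library was left out. When a library was left out, CTA1 to CTT1 passed only without DGY1735 replicate 2 or without DGY1741 replicate 1. PRX1 to TSA1 passed only without DGY1735 replicate 2, and TSA2 to TSA1 only without DGY1741 replicate 1. Over all 8 libraries left out in turn, log2 gaps were 3.08 to 3.33, 0.29 to 0.36 and 0.63 to 1.03 for these 3 ratios. The cause was not tested.

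When a library was left out, log2 ratios that changed sign ranged from -0.43 to 0.16 for CTT1, -0.54 to 0.042 for SOD2 and -0.075 to 0.21 for GPX1 in DGY1735 over DGY1726, from -0.23 to 0.026 for SOD1, -0.056 to 0.37 for TSA2 and -0.061 to 0.36 for GPX2 in DGY1743 over DGY1735, from -0.031 to 0.46 for TSA2 in DGY1743 over DGY1741 and from -0.29 to 0.23 for TSA2 in DGY1741 over DGY1735. The last, 0.0048 in the reported fit, was -0.0167 with DESeq2, -0.0177 with RLE factors, -0.0071 with upper-quartile factors, -0.0124 without a filter, -0.0056 with filterByExpr and -0.0089 in the fit of 8 libraries.

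Over all genes, DGY1735 over DGY1726 gave 97 calls, 191 with DESeq2, 256 with the replicate block, 37 at an adjusted p under 0.01 and 17 to 178 when a library was left out. The count among the strains, 2616, fell to 1735 without DGY1741 replicate 1 and to 1603 at 0.01. DGY1741 gave 2385 calls against DGY1726 (1561 without DGY1741 replicate 1) and 2129 against DGY1735 (1066 without it, 1387 at 0.01). DGY1743 gave 1503 calls against DGY1726 (942 and 979 without a DGY1726 library, 915 at 0.01), 891 against DGY1735 (288 and 547 without a DGY1743 library, 312 at 0.01) and 1358 against DGY1741 (731 and 837 without a DGY1741 library). Same-numbered libraries deviated together by r = -0.25 to 0.40, so that the numbers were not taken to pair them. With the replicate block, 8 members were called among the strains, TSA2 and GPX1 gained a call in DGY1741 and DGY1743 over DGY1726 (adjusted p = 0.0051 and 0.0411) and SOD2 lost one in DGY1743 over DGY1741 (adjusted p = 0.051). Precision is limited by 2 replicates, and for CTA1 and TSA2 also by low counts.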
